A study of Mus musculus with 14 samples.

Results

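RNA of 9 CC chemokines, Ccl2, Ccl3, Ccl4, Ccl7, Ccl8, Ccl17, Ccl20, Ccl22 and Ccl27a, was followed in 14 libraries of mouse skin. The genes were chosen as CC chemokines known from inflamed skin, by symbol, and each matched 1 of the 56953 genes in the table of read counts. The libraries form 6 groups. Skin of NEDD8fl/fl mice labelled K14-CreERT pos, called knockout here, gave 2 libraries with imiquimod and 3 with DMSO. Skin of NEDD8fl/fl mice labelled K14-CreERT neg, called Cre-negative here, gave 2 with imiquimod and 3 with DMSO. Wild-type C57BL/6J skin gave 2 with imiquimod and 2 with DMSO. Both NEDD8fl/fl groups thus carry the floxed alleles, and they differ in the recombinase, which the keratin 14 promoter drives in keratinocytes and not in the immune cells, fibroblasts and vessels of the skin. NEDD8 is a ubiquitin-like protein that activates cullin-RING ubiquitin ligases, and imiquimod is a Toll-like receptor 7 agonist. It was given as Aldara cream with 5% imiquimod, daily from day 0 to day 7, and only knockout mice are said to have been induced, on 5 days beforehand. The comparisons ask how the loss of NEDD8 in keratinocytes alters skin, with and without this psoriasis-like inflammation.

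Several features of the libraries limit what the groups can show. The sample labels were followed for genotype and treatment, although the series' own design text tells of a NEDD8 inhibitor or DMSO put on wild-type mice, and the extraction text of cells given compounds, which match no imiquimod or knockout label. How the DMSO was applied is not stated for these groups. Ages are not given, the cream went on backs or right ears with no site named for a library, and nothing says that replicates came from separate mice, so p-values reflect only how much these samples vary, which may be technical. The cream base came with imiquimod only, and inducing treatment with knockout only, so their effects cannot be told apart from those of imiquimod and of genotype. By Xist and Y-linked reads the knockout imiquimod libraries were male, the knockout DMSO libraries female, the Cre-negative imiquimod libraries male, the Cre-negative DMSO libraries 2 male and 1 female (replicate 3), and all wild-type libraries female. Total counts ran from 5552954 to 34362477 per library, and the 18S gene Rn18s-rs5 took 3.84% to 19.1% of them, most in Cre-negative imiquimod replicate 2 (19.1%) and knockout DMSO replicate 1 (17.5%). All 11 keratinocyte markers had counts in every group. Nedd8 itself had 151 to 308 CPM (read counts scaled to a common library size with TMM) in knockout imiquimod skin and 314 to 461 CPM in Cre-negative imiquimod skin, and 147 to 375 CPM in knockout DMSO skin and 290 to 360 CPM in Cre-negative DMSO skin. Its log2 fold change was -0.76 ± 0.50 (SE) with imiquimod (edgeR adjusted p = 0.33) and -0.47 ± 0.40 with DMSO (edgeR adjusted p = 0.4). The tags thus did not show the deletion. They may lie outside the deleted part, but neither this nor the extent of the deletion was tested.

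Chemokines are small secreted proteins that bind receptors on leukocytes and draw those cells along a gradient. CC chemokines are named for a pair of neighbouring cysteines, and in skin they come from keratinocytes, macrophages, dendritic cells, neutrophils and fibroblasts. Ccl3 acts on Ccr1, Ccl2 and Ccl7 on Ccr2, mouse Ccl8 on Ccr8, Ccl17 and Ccl22 on Ccr4, Ccl20 on Ccr6 and Ccl27a on Ccr10. Atypical receptors such as Ackr2 take chemokines up without drawing cells.

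All 9 members passed the filter on low counts. With DMSO, 4 of the 9 passed the threshold (adjusted p under 0.05) in knockout against Cre-negative skin, where 29.6% of the 16027 genes tested did. Ccl3 and Ccl4 rose (14% of all genes did) and Ccl22 and Ccl27a fell (15.7% did), and the median log2 change of the members was -1.32, against -0.06 for all genes. With imiquimod, 4 of 9 passed in knockout against Cre-negative skin, against 17.9% of all genes. Ccl3, Ccl4 and Ccl8 rose (11.6% of all genes did) and Ccl20 fell (6.33% did), with a median of 1.82 against 0.02. These shares of members lie above the background, but the members were chosen with earlier results known, and nothing particular to them is read from the shares.

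Imiquimod against DMSO called 3 of 9 members in Cre-negative skin, against 18.2% of all genes. Ccl3 and Ccl4 rose (8.15% of all genes did) and Ccl27a fell (10.1% did), with a member median of 0.06 against -0.06. In wild-type skin 3 of 9 passed, against 21.4% of all genes: Ccl3 and Ccl4 rose (9.59% of all genes did) and Ccl27a fell (11.8% did), with a median of 0.75 against -0.09. In knockout skin 4 of 9 passed, against 11.1% of all genes. Ccl2, Ccl3, Ccl4 and Ccl7 rose there (8.56% of all genes did) and 0 fell (2.52% did), with a median of 1.69 against -0.04. The imiquimod response of knockout skin minus that of Cre-negative skin passed for 3 of 9, where 23.6% of all genes passed. All 3, Ccl2, Ccl8 and Ccl27a, were positive (14% of all genes were, and 9.63% were negative), with a median of 0.79 against 0.11. The comparisons share libraries, so their lists of genes are not independent of each other.

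**Figure D1:**
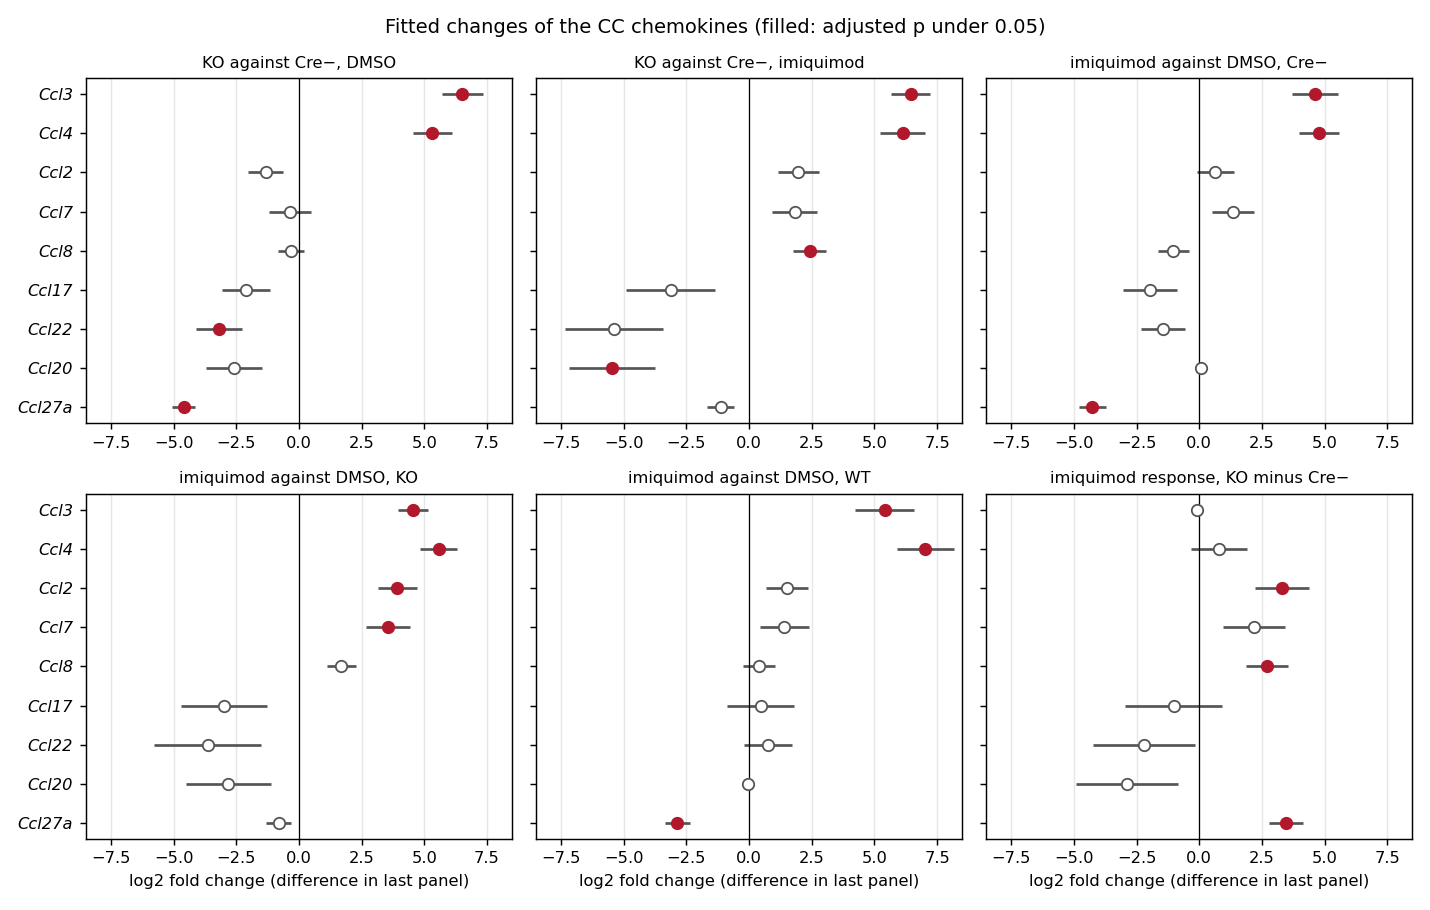
Log2 fold change (x axis) of each CC chemokine (y axis) in 5 comparisons between groups, and in the last panel the log2 difference between the imiquimod responses of knockout (KO) and Cre-negative (Cre−) skin. WT is wild type, bars are ± 1 SE (left out for values nearer 0 than 0.1, which does not mean a small spread), and filled points passed an edgeR adjusted p of 0.05. Ccl3 and Ccl4 are filled and right of 0 in all 5 comparisons, whereas Ccl27a is filled and left of 0 in 3.

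Ccl3 and Ccl4, macrophage inflammatory proteins made by activated macrophages, neutrophils and T cells, were the members that rose in every pairwise comparison. Ccl3 (ENSMUSG00000000982.6) lies on the minus strand at chr11:83538670-83540181 on GRCm39, and Ccl4 (ENSMUSG00000018930.4) on the plus strand at chr11:83553410-83555509, so the genes are neighbours. The promoter of Ccl3 is shown as that of the member with the highest fold in knockout DMSO skin, from RefSeq's GRCm38.p6, minus strand, chr11:83649379-83649628, ending at the base before the start, with no match to the searched motifs and so no capitals.
Ccl3 promoter: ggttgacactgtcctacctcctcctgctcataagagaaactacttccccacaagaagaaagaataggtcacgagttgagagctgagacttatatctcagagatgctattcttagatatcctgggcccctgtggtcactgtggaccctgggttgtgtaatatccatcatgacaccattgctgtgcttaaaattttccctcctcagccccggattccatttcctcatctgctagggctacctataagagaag

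Ccl3 had 203 and 90.9 CPM in the knockout imiquimod libraries and 11.7, 2.23 and 5.95 CPM in the knockout DMSO libraries. It had 1.87 and 1.55 CPM in Cre-negative imiquimod skin and 0, 0.0547 and 0.146 CPM in Cre-negative DMSO skin. In wild-type skin it had 1.74 and 1.87 CPM with imiquimod and 0.1 and 0 CPM with DMSO. The 4 NEDD8fl/fl groups thus stood apart without overlap, and knockout DMSO skin lay above both imiquimod-treated groups that have no recombinase. The Cre-negative DMSO libraries held only 3 Ccl3 counts in all and the wild-type DMSO libraries 1, so folds against them are imprecise.

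With DMSO, Ccl3 was 93.7-fold higher in knockout than in Cre-negative skin by pooled counts, with an exact 95% interval of 31.7 to 457 that covers counting error only (fitted log2 fold change 6.52 ± 0.82, edgeR adjusted p = 1e-04). With imiquimod it averaged 147 ± 79.5 CPM in knockout skin and 1.71 ± 0.225 CPM in Cre-negative skin (SD, n = 2 each), a log2 fold change of 6.44 ± 0.79 (edgeR adjusted p = 0.00031, and 5.74 without knockout imiquimod replicate 1). Imiquimod raised it 27.4-fold (exact interval 8.66 to 139) in Cre-negative skin, with a fitted value of 4.61 ± 0.93 (edgeR adjusted p = 0.0045). The same treatment gave 4.54 ± 0.60 in knockout skin (edgeR adjusted p = 0.00042), and the difference between these responses was -0.08 (edgeR adjusted p = 0.91). In wild-type skin the ratio was 54.0 (exact interval 9.34 to 2170) and the fitted value 5.41 ± 1.17 (edgeR adjusted p = 0.007), a call that ended without wild-type DMSO replicate 2 (4.06, adjusted p = 0.089), while leaving out replicate 1 gave 7.83. The value for knockout skin was 3.84 without imiquimod replicate 1 and 5.16 without DMSO replicate 1. A term for sex ended the call for imiquimod in knockout skin (6.63, adjusted p = 0.24), where sex and treatment coincide. It put the genotype contrast in DMSO skin at 5.37. Only Cre-negative DMSO skin held both sexes, so this term rests on its 1 female library, replicate 3.

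Ccl4 had 936 and 562 CPM in knockout imiquimod skin and 17.8, 6.99 and 22.4 CPM in knockout DMSO skin. It had 10.0 and 11.5 CPM in Cre-negative imiquimod skin and 0.0559, 0.0547 and 1.17 CPM in Cre-negative DMSO skin. In wild-type skin it had 12.8 and 16.4 CPM with imiquimod and 0.201 and 0.0495 CPM with DMSO. Knockout imiquimod skin lay far above all other libraries, and knockout DMSO skin overlapped with the imiquimod-treated skin of both other genotypes. Of the Cre-negative DMSO libraries, the high one was replicate 3, the female one.

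The log2 fold change of Ccl4 in knockout against Cre-negative skin was 5.32 ± 0.79 with DMSO (edgeR adjusted p = 0.00034) and 6.12 ± 0.90 with imiquimod (edgeR adjusted p = 0.00085). Imiquimod gave 5.57 ± 0.74 in knockout skin (edgeR adjusted p = 0.00042) and 4.77 ± 0.81 in Cre-negative skin (edgeR adjusted p = 0.0017). The difference of these responses, 0.79 ± 1.12, did not pass (edgeR adjusted p = 0.63). In wild-type skin, with 3 counts in DMSO libraries, the ratio was 142 (exact interval 48.4 to 692) and the fitted value 7.03 ± 1.15 (edgeR adjusted p = 0.0014), which was 8.06 without wild-type DMSO replicate 1 and 6.13 without replicate 2. Without Cre-negative DMSO replicate 3 the value for knockout against Cre-negative DMSO skin was 7.95 and that for imiquimod in Cre-negative skin 7.41, while those of Ccl3 were 7.47 and 5.56. The difference of Ccl4 responses without that library was -1.84 (adjusted p = 0.19). With a sex term Ccl4 stood at 9.77 for imiquimod in knockout skin and at 3.75 for the genotype contrast in DMSO skin. Both were still past the threshold, but the term rests on Cre-negative DMSO replicate 3 alone, as for Ccl3.

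**Figure D2:**
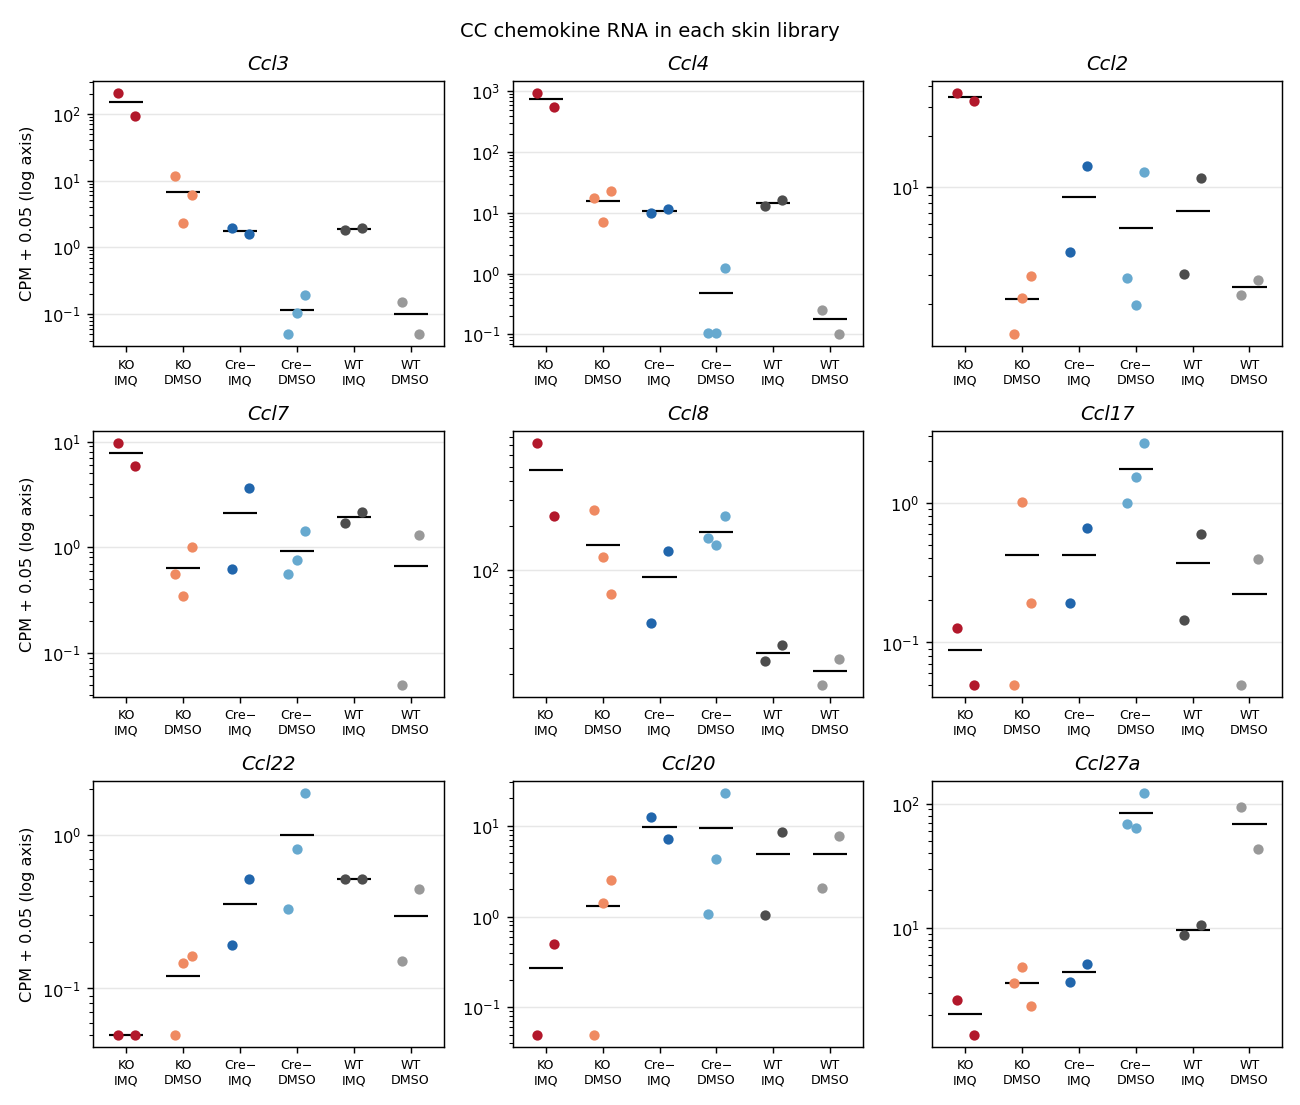
RNA level of each CC chemokine in every library, as CPM + 0.05 on a log axis (y), for knockout (KO), Cre-negative (Cre−) and wild-type (WT) skin with imiquimod (IMQ) or DMSO. Points are libraries, lines are group means and libraries with 0 counts sit at 0.05. Ccl3 and Ccl4 reach 203 and 936 CPM in knockout imiquimod skin and lie near 0 in DMSO skin without the recombinase, while Ccl27a is above 40 CPM only in Cre-negative and wild-type DMSO skin.

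Ccl3 and Ccl4 moved beside markers of neutrophils, cells that make both. The summed level of 11 neutrophil markers was 2450 to 5900 CPM in knockout imiquimod skin, 139 to 226 CPM in knockout DMSO skin, 74.9 to 107 CPM in Cre-negative imiquimod skin and 14.8 to 27.9 CPM in Cre-negative DMSO skin. In wild-type skin it was 89.8 to 129 CPM with imiquimod and 14.8 to 16.4 CPM with DMSO. Of these markers 10 of 11 rose in knockout against Cre-negative skin with imiquimod (11.6% of all genes did) and 7 of 11 with DMSO (14% did). Ly6g, which defines the lineage in mice, had 81.3 and 30.4 CPM in knockout imiquimod skin, 0.255, 1.65 and 1.07 CPM in knockout DMSO skin and 0 counts in DMSO skin of the other genotypes. The sum of 15 monocyte and macrophage markers was 2110 to 4230 CPM in knockout imiquimod skin and 789 to 1350 CPM in Cre-negative imiquimod skin, but 509 to 979 CPM in knockout DMSO skin and 946 to 1210 CPM in Cre-negative DMSO skin. In wild-type skin this sum was 948 to 1730 CPM with imiquimod and 483 to 489 CPM with DMSO. Of these 15 markers 7 rose and 0 fell in knockout against Cre-negative skin with imiquimod (11.6% and 6.33% of all genes did). With DMSO 1 rose and 1 fell (14% and 15.7% did). In knockout skin 11 rose and 0 fell with imiquimod against DMSO (8.56% and 2.52% of all genes did). The sum of 8 mast cell markers was 640 to 1480 CPM in knockout imiquimod skin, 47.4 to 65.7 CPM in knockout DMSO skin, 22.4 to 26.2 CPM in Cre-negative imiquimod skin and 11.4 to 22.9 CPM in Cre-negative DMSO skin. Of 7 tested, 2 rose with imiquimod against DMSO in knockout skin, with a median log2 change of 0.02. Most thus did not share the rise of the sum. In knockout against Cre-negative skin 3 rose with imiquimod (11.6% of all genes did) and 1 with DMSO (14% did). Of 9 endothelial markers 6 rose in that contrast with imiquimod and 2 with DMSO, against the same shares of all genes. With DMSO 8 of 8 skeletal muscle markers fell in it (15.7% of all genes did). The part of these cells in the chemokine changes was not tested. In whole skin a larger number of cells of a type and more RNA per cell cannot be told apart.

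For Ccl2, Ccl7 and Ccl8 knockout imiquimod skin had the highest mean of the 6 groups, and no genotype contrast in DMSO skin passed. The calls differed: Ccl2 and Ccl7 rose with imiquimod in knockout skin, and Ccl8 was higher in knockout than in Cre-negative skin with imiquimod. Ccl2 is the main attractant of Ccr2-bearing monocytes, Ccl7 acts on the same cells and others, and mouse Ccl8 attracts Ccr8-bearing T cells. The genes lie on the plus strand of chromosome 11 of GRCm39, Ccl2 (ENSMUSG00000035385.6) at chr11:81926397-81928279, Ccl7 (ENSMUSG00000035373.3) at chr11:81936538-81938351 and Ccl8 (ENSMUSG00000009185.3) at chr11:82006011-82007625.

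Ccl2 had 36.2 and 32.3 CPM in knockout imiquimod skin, above all other libraries, and 1.27, 2.14 and 2.90 CPM in knockout DMSO skin. It had 4.02 and 13.3 CPM in Cre-negative imiquimod skin and 2.80, 1.92 and 12.3 CPM in Cre-negative DMSO skin, which overlapped. In wild-type skin it had 2.97 and 11.3 CPM with imiquimod and 2.21 and 2.72 CPM with DMSO. Imiquimod raised Ccl2 in knockout skin by 3.93 ± 0.78 log2 units (edgeR adjusted p = 0.0056), or by 6.31 with a sex term and 4.78 with a replicate block. The fitted value was 0.64 ± 0.73 in Cre-negative skin (edgeR adjusted p = 0.58) and 1.51 ± 0.84 in wild-type skin (edgeR adjusted p = 0.21). The response of knockout skin exceeded that of Cre-negative skin by 3.29 ± 1.08 (edgeR adjusted p = 0.042), a call that ended without any 1 of the 5 knockout libraries, without Cre-negative imiquimod replicate 1 and without Cre-negative DMSO replicate 3, with values of 2.04 to 4.44 over the 10 libraries left out. Knockout against Cre-negative skin gave 1.96 ± 0.82 with imiquimod (edgeR adjusted p = 0.12, but 0.029 with the compared groups only) and -1.32 ± 0.70 with DMSO (edgeR adjusted p = 0.17).

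Ccl7 had 9.59 and 5.84 CPM in knockout imiquimod skin and 0.509, 0.291 and 0.958 CPM in knockout DMSO skin. It had 0.574 and 3.57 CPM in Cre-negative imiquimod skin and 0.503, 0.711 and 1.38 CPM in Cre-negative DMSO skin. Wild-type skin had 1.65 and 2.10 CPM with imiquimod and 0 and 1.24 CPM with DMSO. Both knockout imiquimod libraries were the highest of all 14. Imiquimod raised Ccl7 by 3.54 ± 0.87 in knockout skin (edgeR adjusted p = 0.019), where the call ended without knockout imiquimod replicate 1 (3.14, adjusted p = 0.19), without knockout DMSO replicate 2 (3.22, adjusted p = 0.059) and with a sex term (4.72, adjusted p = 0.17), and leaving out knockout DMSO replicate 3 gave 4.37. The fitted values in Cre-negative skin (1.35 ± 0.85) and wild-type skin (1.41 ± 0.96) did not pass, nor did the difference of responses (2.19 ± 1.23, edgeR adjusted p = 0.21).

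Ccl8 had 721 and 232 CPM in knockout imiquimod skin and 254, 123 and 68.7 CPM in knockout DMSO skin, which overlapped. It had 43.9 and 135 CPM in Cre-negative imiquimod skin and 165, 149 and 234 CPM in Cre-negative DMSO skin, where all imiquimod values were the lower ones. Wild-type skin had 24.2 and 31.3 CPM with imiquimod and 16.9 and 25.0 CPM with DMSO, less than any NEDD8fl/fl library. With imiquimod Ccl8 was higher in knockout than in Cre-negative skin (477 ± 346 and 89.4 ± 64.4 CPM, SD, n = 2 each), by 2.41 ± 0.67 log2 units (edgeR adjusted p = 0.026). That call ended without knockout replicate 1 (1.37, adjusted p = 0.3) or Cre-negative replicate 1 (1.73, adjusted p = 0.16), and without Cre-negative replicate 2 the value was 3.47. Imiquimod gave 1.69 ± 0.58 in knockout skin (edgeR adjusted p = 0.079) and -1.03 ± 0.60 in Cre-negative skin (edgeR adjusted p = 0.25), neither past the threshold. The difference of these responses was 2.71 ± 0.84 (edgeR adjusted p = 0.034), and took values of 1.69 to 3.76 when 1 of the 10 libraries was left out. Its call ended without knockout imiquimod replicate 1, knockout DMSO replicate 2 or 3, Cre-negative imiquimod replicate 1 or Cre-negative DMSO replicate 1 or 3, and with a sex term (3.07, adjusted p = 0.064).

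Ccl20 and Ccl27a are chemokines that keratinocytes make. Ccl20 draws Ccr6-bearing T helper 17 cells and dendritic cells and is induced by interleukin 17 in epidermis, whereas Ccl27a is made by resting epidermis and draws Ccr10-bearing skin-homing T cells. Ccl20 (ENSMUSG00000026166.15) lies on the plus strand at chr1:83094487-83096888 on GRCm39, and Ccl27a (ENSMUSG00000073888.14) on the minus strand at chr4:41769467-41774247. Their promoters are shown because they were the members whose windows held a searched motif, from RefSeq's GRCm38.p6, 250 bases ending just before the start. Capitals in Ccl20 (plus strand, chr1:83116516-83116765) mark a kappa B match 80 bases before the start. Capitals in Ccl27a (minus strand, chr4:41770213-41770462, 1 of 3 starts listed) mark an AP-1 match, TGANTCA, 77 bases before the start.
Ccl20 promoter: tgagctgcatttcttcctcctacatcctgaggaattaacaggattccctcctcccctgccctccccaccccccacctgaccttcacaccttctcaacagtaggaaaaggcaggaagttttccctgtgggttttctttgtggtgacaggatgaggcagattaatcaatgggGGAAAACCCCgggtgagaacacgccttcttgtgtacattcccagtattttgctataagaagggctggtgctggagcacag
Ccl27a promoter: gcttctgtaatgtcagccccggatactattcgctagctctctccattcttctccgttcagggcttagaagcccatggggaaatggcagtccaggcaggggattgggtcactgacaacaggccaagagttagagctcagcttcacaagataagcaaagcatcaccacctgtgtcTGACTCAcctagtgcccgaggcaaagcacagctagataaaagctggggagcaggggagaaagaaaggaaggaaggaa

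Both motifs were searched on both strands. Of 32851 RefSeq promoters of the same length, 3.9% held a kappa B match and 6.75% an AP-1 match. Entries were matched for 6 of the 9 members, and the windows of Ccl3, Ccl8, Ccl17 and Ccl22 held neither motif. A match describes letters and is not a measured binding site.

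Ccl27a had 2.59 and 1.33 CPM in knockout imiquimod skin and 3.57, 4.76 and 2.28 CPM in knockout DMSO skin. It had 3.59 and 5.05 CPM in Cre-negative imiquimod skin and 68.4, 63.4 and 121 CPM in Cre-negative DMSO skin. Wild-type skin had 8.66 and 10.4 CPM with imiquimod and 94.8 and 43.1 CPM with DMSO. The 5 DMSO libraries without the recombinase thus stood at 43.1 CPM or more, and the 9 others at 10.4 CPM or less. Knockout DMSO skin overlapped with imiquimod-treated Cre-negative skin.

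With DMSO, Ccl27a averaged 3.53 ± 1.24 CPM in knockout skin and 84.1 ± 31.6 CPM in Cre-negative skin (SD, n = 3 each), a log2 fold change of -4.60 ± 0.45 (edgeR adjusted p = 1.7e-05). Imiquimod lowered it by a log2 fold change of -4.27 ± 0.53 in Cre-negative skin (edgeR adjusted p = 0.00019) and of -2.86 ± 0.50 in wild-type skin (edgeR adjusted p = 0.0022, and -2.09 without wild-type DMSO replicate 1). In knockout skin the value was -0.81 ± 0.49 (edgeR adjusted p = 0.32), and the response was less negative there than in Cre-negative skin by 3.46 ± 0.68 (edgeR adjusted p = 0.0042). With imiquimod, knockout against Cre-negative skin gave -1.14 ± 0.52 (edgeR adjusted p = 0.15). These 4 calls held when any 1 library was left out.

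The counts of Ccl27a may depend on how reads shared with its copies were assigned, which was not tested. Of the 50-base words in the last 300 bases of its coding transcripts, 60.8% also occur in transcripts of 5 other genes of the GENCODE M21 annotation, and 0 do for the other members. These copies had at most 2 counts in any group. The gene also overlaps Il11ra1 on the opposite strand, whose mean was 82.9 CPM in knockout DMSO skin and 142 CPM in Cre-negative DMSO skin. The summed keratinocyte markers, which include Krt6a and Krt16 of wounded epidermis, went the other way from Ccl27a between the DMSO groups, with 40100 to 64600 CPM in knockout skin and 9260 to 16200 CPM in Cre-negative skin. Of these 11 markers 5 rose, 2 fell and 4 were not called in that contrast (14% of all genes rose and 15.7% fell). Their median log2 change was 0.81, so the sum does not stand for every marker. The sum lay at 15900 to 26000 CPM in knockout imiquimod skin, where Ccl27a was lowest, and at 33500 to 44000 CPM in Cre-negative imiquimod skin.

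Ccl20 had 0 and 0.443 CPM in knockout imiquimod skin and 0, 1.36 and 2.45 CPM in knockout DMSO skin. It had 12.3 and 7.06 CPM in Cre-negative imiquimod skin and 1.01, 4.21 and 22.7 CPM in Cre-negative DMSO skin. Wild-type skin had 0.989 and 8.57 CPM with imiquimod and 2.01 and 7.57 CPM with DMSO. Both knockout imiquimod libraries lay below all 9 libraries without the recombinase, and the highest value was that of the female Cre-negative DMSO replicate 3. With imiquimod the log2 fold change of knockout against Cre-negative skin was -5.47 ± 1.72 (5 and 191 counts in all, edgeR adjusted p = 0.042). This call ended when any 1 of the 4 libraries was left out, with values of -10.2 to -4.42 and adjusted p of 0.076 to 0.28. With DMSO the value was -2.60 ± 1.12 (edgeR adjusted p = 0.095, but 0.035 with a replicate block). Imiquimod against DMSO gave 0.06 in Cre-negative skin and -0.05 in wild-type skin (edgeR adjusted p = 0.98 for both) within widely spread libraries, and -2.81 ± 1.68 in knockout skin (edgeR adjusted p = 0.31).

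Ccl17 and Ccl22 are ligands of Ccr4 made mainly by dendritic cells, and they draw T helper 2 and regulatory T cells. They lie near each other on the plus strand of chromosome 8 of GRCm39, Ccl22 (ENSMUSG00000031779.4) at chr8:95472218-95478327 and Ccl17 (ENSMUSG00000031780.3) at chr8:95537081-95538664. Both were measured at few counts.

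Ccl22 had 0 counts in both knockout imiquimod libraries and 0, 0.0971 and 0.113 CPM in knockout DMSO skin. It had 0.143 and 0.471 CPM in Cre-negative imiquimod skin and 0.28, 0.766 and 1.82 CPM in Cre-negative DMSO skin. Wild-type skin had 0.471 and 0.468 CPM with imiquimod and 0.1 and 0.396 CPM with DMSO. With DMSO all 3 knockout libraries lay below all 3 Cre-negative ones, and the log2 fold change was -3.18 ± 0.91 (5 and 44 counts, edgeR adjusted p = 0.02). Without knockout DMSO replicate 2 or 3 it was -3.19 (adjusted p = 0.052) or -3.61 (adjusted p = 0.079). With imiquimod Ccl22 was at least 2.98-fold lower in knockout than in Cre-negative skin taking its 0 counts as a floor of 3 over both libraries, and did not pass (edgeR adjusted p = 0.077).

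Ccl17 had 0.0761 and 0 CPM in knockout imiquimod skin and 0, 0.971 and 0.141 CPM in knockout DMSO skin. It had 0.143 and 0.605 CPM in Cre-negative imiquimod skin and 0.95, 1.48 and 2.62 CPM in Cre-negative DMSO skin. Wild-type skin had 0.0942 and 0.545 CPM with imiquimod and 0 and 0.347 CPM with DMSO. Cre-negative DMSO replicates 2 and 3 were the highest of all, and replicate 1 lay just under knockout DMSO replicate 2. Ccl17 passed in 0 of the 6 comparisons with edgeR, in 1 of them at an unadjusted p under 0.05, in 0 with DESeq2 and in 1 with limma voom. That comparison was the genotype contrast in DMSO skin, where the libraries overlapped (-2.11 ± 0.96, edgeR adjusted p = 0.11, against 0.018 with limma voom). It also passed with edgeR without the filter (adjusted p = 0.032), with a replicate block (-2.58, adjusted p = 0.045) and without knockout DMSO replicate 2 (-3.73, adjusted p = 0.031).

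The sum of 13 dendritic and Langerhans cell markers was, like the mean levels of Ccl17 and Ccl22, lower in knockout than in Cre-negative skin, at 40.5 to 70.4 CPM in knockout imiquimod skin, 34.0 to 58.3 CPM in knockout DMSO skin, 96.3 to 167 CPM in Cre-negative imiquimod skin and 499 to 675 CPM in Cre-negative DMSO skin. In wild-type skin it was 120 to 123 CPM with imiquimod and 255 to 257 CPM with DMSO, whereas both Ccl17 and Ccl22 had the higher mean with imiquimod there. Ccl20 averaged 9.70 CPM with imiquimod and 9.29 CPM with DMSO in Cre-negative skin, where the sums differed. Of 11 tested markers 10 fell in knockout against Cre-negative skin with DMSO (15.7% of all genes did) and 5 with imiquimod (6.33% did). Cd207, the langerin gene that defines Langerhans cells, had 0 counts in knockout DMSO skin and 6.04, 4.92 and 14.2 CPM in Cre-negative DMSO skin. The part of these cells in the levels of Ccl17, Ccl20 and Ccl22 was not tested.

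**Figure D3:**
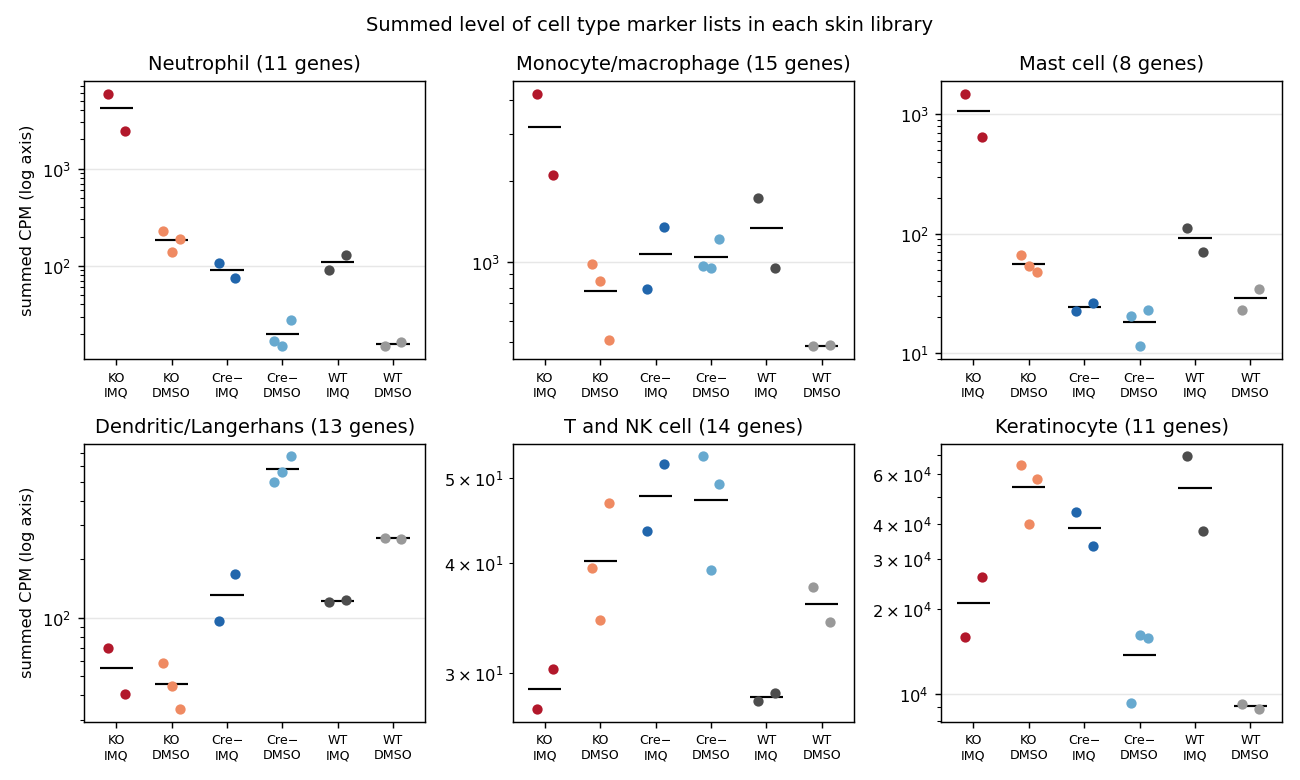
Summed CPM (y, log axis) of marker lists for 6 cell types in every library of knockout (KO), Cre-negative (Cre−) and wild-type (WT) skin with imiquimod (IMQ) or DMSO. Points are libraries and lines group means. Neutrophil markers reach 2450 to 5900 CPM in knockout imiquimod skin, and dendritic and Langerhans cell markers are highest, at 499 to 675 CPM, in Cre-negative DMSO skin.

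CC chemokine receptors, those of the members and others, were counted as 1 list. Of 11 tested, 0 rose and 6 fell (median -1.73) in knockout against Cre-negative skin with DMSO, against 14% and 15.7% of all genes. In knockout skin 4 rose and 0 fell with imiquimod (median 1.92), against 8.56% and 2.52% of all genes. With imiquimod 4 rose and 2 fell in knockout against Cre-negative skin (median 1.34), against 11.6% and 6.33% of all genes. The difference of responses was positive for 6 and negative for 1 (14% and 9.63% of all genes). Imiquimod called 0 higher and 2 lower in Cre-negative skin (8.15% and 10.1% of all genes). In wild-type skin it called 1 higher and 2 lower (9.59% and 11.8% of all genes). Ccr1, a receptor of Ccl3 on macrophages and other leukocytes, rose with imiquimod in knockout skin by 4.37 ± 0.66 (edgeR adjusted p = 0.001). It had 52.1 and 49.0 CPM there, 1.78, 3.11 and 2.28 CPM in knockout DMSO skin and 5.02 and 2.96 CPM in Cre-negative imiquimod skin. With imiquimod Ccr1 was higher in knockout than in Cre-negative skin by 3.68 ± 0.75 (edgeR adjusted p = 0.0052, and 0.057 without Cre-negative replicate 2). In wild-type skin it was 16.5-fold higher with imiquimod (exact interval 5.37 to 82.6 over 3 DMSO counts, edgeR adjusted p = 0.016), a call lost without imiquimod replicate 2 or either DMSO library.

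Ccr2, the receptor of Ccl2 and Ccl7 on inflammatory monocytes, had 87.6 and 31.7 CPM in knockout imiquimod skin and 5.09, 11 and 7.64 CPM in knockout DMSO skin. It had 37.7 and 60.1 CPM in Cre-negative imiquimod skin and 46.5, 65.2 and 122 CPM in Cre-negative DMSO skin. Knockout DMSO skin was thus the low group, by -3.28 ± 0.52 against Cre-negative skin (edgeR adjusted p = 0.00052). Imiquimod gave 2.89 ± 0.54 in knockout skin (edgeR adjusted p = 0.0039) and -0.67 ± 0.53 in Cre-negative skin (edgeR adjusted p = 0.41), a difference of 3.56 ± 0.77 (edgeR adjusted p = 0.0068). Without knockout imiquimod replicate 1 the response was 1.98 (adjusted p = 0.12) and the difference 2.65 (adjusted p = 0.056).

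Ccr4, the receptor of Ccl17 and Ccl22 on skin-homing T cells, had 0.228 and 0.0886 CPM in knockout imiquimod skin and 1 count in all in knockout DMSO skin. It had 2.44 and 2.35 CPM in Cre-negative imiquimod skin and 5.65, 3.88 and 5.10 CPM in Cre-negative DMSO skin. Ccr4 was 241-fold lower in knockout than in Cre-negative skin with DMSO (exact interval 42.9 to 9560, edgeR adjusted p = 9.6e-06), and with imiquimod the log2 fold change was -3.82 ± 0.65 (edgeR adjusted p = 0.002). Ccr6, the receptor of Ccl20, fell with DMSO by a log2 fold change of -3.33 ± 0.74 (edgeR adjusted p = 0.0049), and with imiquimod it stood at -2.64 ± 0.98 (edgeR adjusted p = 0.08). Ccr8, the receptor of mouse Ccl8, had 0 counts in all 14 libraries, and Ccr10, the receptor of Ccl27a, had 0.801 CPM or less in each and was not tested. Of 10 tested T and NK cell markers 7 fell in knockout against Cre-negative skin with DMSO (15.7% of all genes did) and 1 with imiquimod (6.33% did). The sum of all 14 listed overlapped with DMSO, at 34.5 to 46.8 CPM in knockout and 39.3 to 52.9 CPM in Cre-negative skin. With imiquimod it was 27.3 to 30.3 CPM in knockout and 43.5 to 51.8 CPM in Cre-negative skin.

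The scavengers Ackr2, which takes up inflammatory CC chemokines, and Ackr4, which takes up Ccl19, Ccl21 and Ccl25, were, like Ccl27a, lower in knockout than in Cre-negative skin with DMSO. Ackr4 had 15.4 and 10.8 CPM in knockout imiquimod skin and 2.04, 7.18 and 6.26 CPM in knockout DMSO skin. It had 3.30 and 4.31 CPM in Cre-negative imiquimod skin and 44.1, 62.7 and 82.1 CPM in Cre-negative DMSO skin. Ackr4 fell in knockout against Cre-negative skin with DMSO by a log2 fold change of -3.54 ± 0.44 (edgeR adjusted p = 9.7e-05) and Ackr2 by one of -4.21 ± 0.64 (edgeR adjusted p = 0.00042). Imiquimod lowered Ackr4 in Cre-negative skin (-4.03 ± 0.54, edgeR adjusted p = 0.00035) and wild-type skin (-3.32 ± 0.53, edgeR adjusted p = 0.0013). Ccrl2, an atypical receptor that binds chemerin, had 67.1 and 35.7 CPM in knockout imiquimod skin and 1.93 CPM or less in every other library. It rose with imiquimod in knockout skin by 5.38 ± 0.41 (edgeR adjusted p = 2.6e-05), and this response exceeded that of Cre-negative skin by 5.63 ± 0.60 (edgeR adjusted p = 2e-04).

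**Figure D4:**
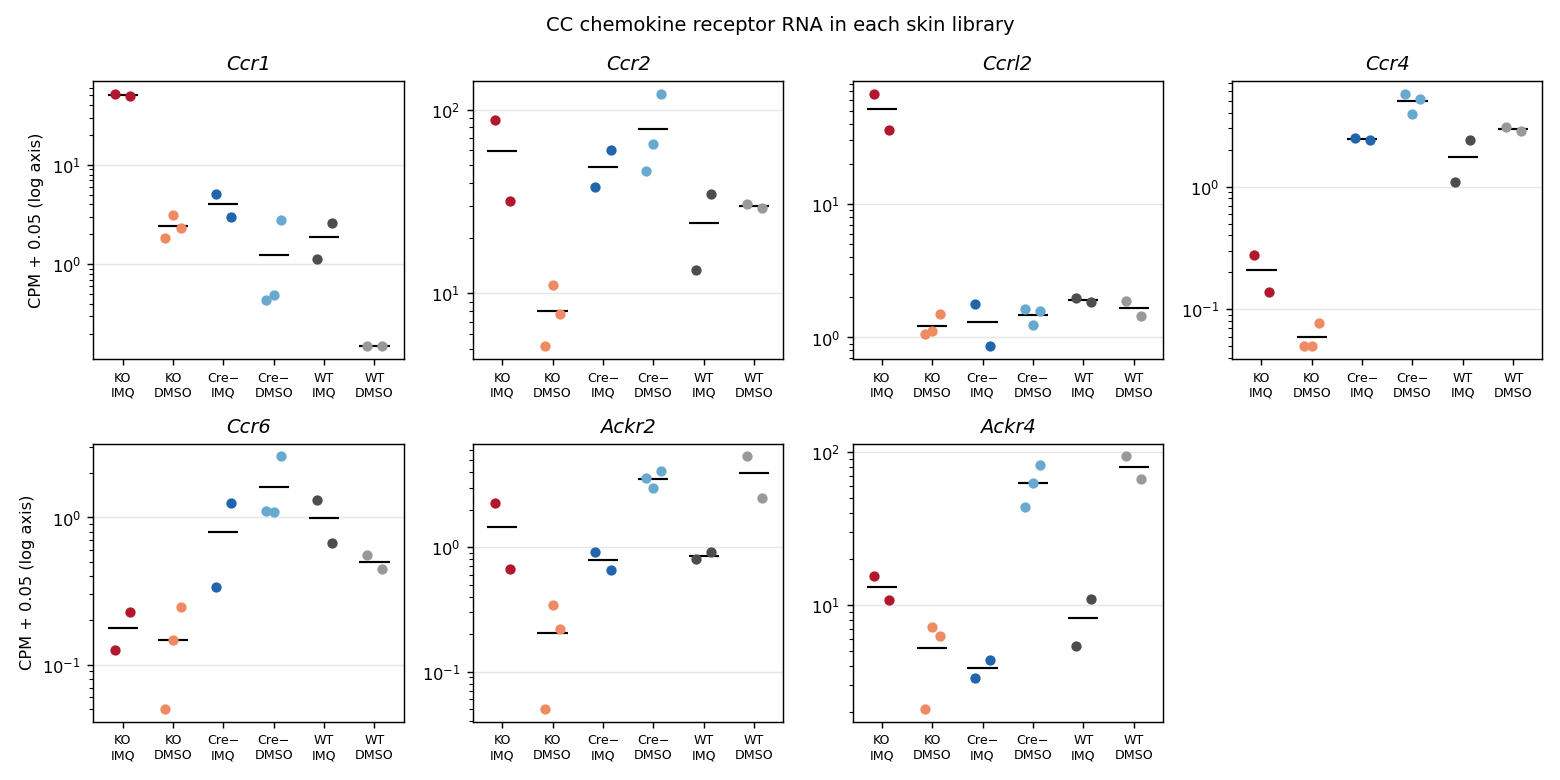
RNA level of 7 CC chemokine receptors in every library, as CPM + 0.05 on a log axis (y), for knockout (KO), Cre-negative (Cre−) and wild-type (WT) skin with imiquimod (IMQ) or DMSO. Points are libraries and lines group means. Ccr1 and Ccrl2 are highest in knockout imiquimod skin, while Ccr4, Ackr2 and Ackr4 are highest in DMSO skin of the other genotypes.

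Of 10 other tested CC ligands, 5 rose and 0 fell with imiquimod in knockout skin, against 8.56% and 2.52% of all genes. In knockout against Cre-negative skin 4 rose with imiquimod (11.6% of all genes did) and 2 fell with DMSO (15.7% did). Imiquimod called 1 lower in Cre-negative skin (10.1% of all genes were) and 1 in each direction in wild-type skin (9.59% higher and 11.8% lower). The counts of 1 and 2 lie near these shares. Ccl9, a myeloid chemokine of rodents that acts on Ccr1, had 315 and 75.2 CPM in knockout imiquimod skin, 31.1, 33.8 and 10.7 CPM in knockout DMSO skin and 9.18 and 21.0 CPM in Cre-negative imiquimod skin. It rose with imiquimod in knockout skin by 2.97 ± 0.61 (edgeR adjusted p = 0.007), and was higher in knockout than in Cre-negative imiquimod skin by 3.68 ± 0.73 (edgeR adjusted p = 0.0049). Ccl12, a mouse ligand of Ccr2, was higher there by 2.64 ± 0.66 (edgeR adjusted p = 0.016), as were Ccl6, another myeloid chemokine of rodents, by 2.45 ± 0.65 (edgeR adjusted p = 0.02) and Ccl21a, a ligand of Ccr7, by 2.08 ± 0.55 (edgeR adjusted p = 0.02). Without knockout imiquimod replicate 1 the contrast with Cre-negative skin fell short for Ccl9 (2.31), Ccl12 (1.76), Ccl6 (1.73) and Ccl21a (1.59), as did the response of Ccl9 (1.59). All 4 contrasts also fell short without Cre-negative imiquimod replicate 1, and that of Ccl21a without replicate 2. Ccl1, a ligand of Ccr8, was 48.8-fold lower in knockout than in Cre-negative DMSO skin (exact interval 8.36 to 1970 over 1 and 49 counts, edgeR adjusted p = 0.0033).

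Cytokines that can induce CC chemokines differed by genotype. Of 10 tested, 9 rose and 0 fell with imiquimod in Cre-negative skin, and 8 rose and 0 fell in wild-type skin. In knockout skin 4 rose and 2 fell. In that order, 8.15%, 9.59% and 8.56% of all genes rose, and 10.1%, 11.8% and 2.52% fell. In knockout against Cre-negative skin 3 rose and 5 fell with imiquimod (11.6% and 6.33% of all genes did). With DMSO 4 rose and 0 fell (14% and 15.7% of all genes did). Il1b, which encodes interleukin 1 beta, had 2730 and 2220 CPM in knockout imiquimod skin and 68.8, 29.0 and 103 CPM in knockout DMSO skin. It had 88.2 and 103 CPM in Cre-negative imiquimod skin and 1.90, 1.86 and 4.15 CPM in Cre-negative DMSO skin. Knockout DMSO skin thus overlapped with Cre-negative imiquimod skin, though 2 of its 3 libraries lay below it. Knockout exceeded Cre-negative skin by 4.69 ± 0.59 with imiquimod (edgeR adjusted p = 0.00036) and by 4.68 ± 0.49 with DMSO (edgeR adjusted p = 2.5e-05). Tnf, tumour necrosis factor, had 32.6 and 23.7 CPM in knockout imiquimod skin and 0.861 and 2.69 CPM in Cre-negative imiquimod skin (3.91 ± 0.58, edgeR adjusted p = 0.00085).

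Il17a, the T cell cytokine that induces Ccl20 in epidermis, had 0 counts in knockout imiquimod skin and 1.43 and 1.82 CPM in Cre-negative imiquimod skin. It was at least 13.8-fold lower in knockout (edgeR adjusted p = 0.0052, and 0.058 without knockout replicate 1) and at least 28.2-fold higher with imiquimod than with DMSO in Cre-negative skin (edgeR adjusted p = 0.0014). Il33, an alarmin of epithelial cells, had 43.0 and 50.3 CPM in knockout imiquimod skin and 268 and 438 CPM in Cre-negative imiquimod skin. With DMSO it had 193, 98.9 and 255 CPM in knockout skin and 18.6, 16.6 and 18.4 CPM in Cre-negative skin. The imiquimod response of Il33 was thus of opposite sign, -1.97 ± 0.39 in knockout skin (edgeR adjusted p = 0.0058, and 0.12 without imiquimod replicate 1) and 4.31 ± 0.38 in Cre-negative skin (edgeR adjusted p = 1.9e-05), a difference of -6.27 ± 0.56 (edgeR adjusted p = 8e-05).

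Across all 14 libraries the members fell into neighbouring patterns, described here by Pearson's r of log2 CPM over libraries that share groups. Ccl3 and Ccl4 had r = 0.97, Ccl2 and Ccl7 had r = 0.84, Ccl17 and Ccl22 had r = 0.79 and Ccl20 and Ccl22 had r = 0.77. Ccl27a ran opposite to both Ccl3 and Ccl4, with r = -0.87 for each. Among 12528 genes with a mean of at least 1 CPM and an established symbol, the 3 most like each member were named.

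Ccl4 was most like Il1b (r = 0.989), Trem1 (0.988), a receptor of neutrophils and monocytes, and Cd300lf (0.987), a myeloid receptor. Ccl3 was most like Acod1 (0.98), which makes itaconate in activated macrophages, Spp1 (0.979), osteopontin, and Ccl4 (0.973). Ccl2 was most like Pilra (0.911), Slc11a1 (0.909), a metal transporter of phagosomes, and Lcp1 (0.907), the plastin of leukocytes. Ccl7 was most like Klra2 (0.902), Pilra (0.878) and Apln (0.874), and Ccl8 was most like Ninj1 (0.962), Tmem37 (0.944) and Mmp12 (0.929), the macrophage elastase.

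Ccl27a was most like Npbwr1 (0.974), Skint5 (0.973), a gene of a keratinocyte family, and Krt77 (0.973), a keratin. Ccl22 was most like Ciita (0.847), the activator of MHC class II genes, H2-Eb1 (0.816), a class II chain, and Zswim3 (0.814). Ccl20 was most like Tsnax (0.944), Itgb8 (0.922), an integrin chain, and Sepsecs (0.914). Ccl17, measured at few counts, was most like Cd209d (0.829), Tbc1d8b (0.795) and Zfp953 (0.792).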

How the data were processed

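Skin RNA was sequenced as tags near the 3′ end of transcripts with a QuantSeq forward kit, per the labels' protocols. The authors' deposited table holds raw counts per gene, and per the file headers its gene length column is the other unit and stayed unused. STAR, featureCounts, DESeq2 and the builds GRCm38 and GRCm39 are named per the submitters' processing notes, with neither versions nor roles. Exon positions in the deposited table are those of GRCm39. Whether counting used strand, and how multimapping reads were treated, is not given in the sources used here.

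Genes were filtered with filterByExpr, which left 16027, scaled by TMM, and tested with edgeR 4.0.16 (R 4.3.3) in 1 quasi-likelihood model of 6 group means over all 14 libraries. The 6 comparisons were contrasts of it, with Benjamini-Hochberg adjustment over all genes tested and a threshold of 0.05. SEs come from the log2 fold change and its F statistic. Levels are CPM with TMM scaling, given by replicate number, and correlations used log2 CPM with a prior count of 2. Where a group held 1 to 3 counts the ratio of pooled counts has an exact 95% interval, and where it held 0 a floor of 3 counts over the group gave a bound. Both cover counting error only, since no use of molecular identifiers is stated and reads may be copies of one molecule.

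The 9 members, the gene lists, the rule for named genes (the members, list genes past the threshold, the members' receptors and the 3 most alike genes) and the tests were chosen with earlier results of these data known. One receptor gene is not reported here. Alternatives were DESeq2 1.42.0, limma 3.58.1 voom, median-of-ratios scaling, library size alone, other filters, the compared groups only, a replicate block, a sex term, leaving out the 2 libraries highest in 18S reads, and leaving out each library. Only Cre-negative DMSO skin held both sexes, so the sex term rests on its 1 female library, replicate 3. It is not independent of leaving that library out. The procedure was tested on simulated data.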

Additional observations from a re-analysis of the deposited data

Results flagged for a closer look

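For 3 of 9 members the response to imiquimod differed between knockout and Cre-negative skin by the test of the difference itself. Of all genes 23.6% passed this test, so nothing particular to the members is read from the count. The calls of Ccl2 and Ccl8 each ended in 9 of 20 alternatives, and that of Ccl27a in 0 of 20. For Ccl27a the log2 response was -0.81 in knockout skin and -4.27 in Cre-negative skin, a difference of 3.46 (edgeR adjusted p = 0.0042), and both knockout groups were already at 4.76 CPM or less. For Ccl2 it was 3.93 in knockout skin and 0.64 in Cre-negative skin, a difference of 3.29 (edgeR adjusted p = 0.042). For Ccl8 it was 1.69 in knockout skin and -1.03 in Cre-negative skin, a difference of 2.71 (edgeR adjusted p = 0.034). In all 3 the knockout libraries with imiquimod were male and those with DMSO female, so sex and treatment cannot be told apart within knockout skin.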

How the results depend on the processing

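Of 21 member calls, 13 kept their side of the threshold under every alternative and 0 changed sign. These were the Ccl3 and Ccl4 calls in both genotype contrasts and in imiquimod against DMSO of Cre-negative skin, Ccl4 with imiquimod in knockout and wild-type skin, Ccl2 with imiquimod in knockout skin, and all 4 of Ccl27a. The others are given above with the libraries that ended them. Besides these, Ccl20 in knockout against Cre-negative imiquimod skin lost its call with library size alone (-5.09), voom (-6.11) and without the libraries highest in 18S reads (-5.85), the Ccl2 difference with voom (2.41) and without those libraries (4.14), and the Ccl8 difference with the compared groups only (2.67). Of the values that were not called, 11 passed under some alternative. Ccl8 with imiquimod in knockout skin did in 7 of 15, Ccl17 in knockout against Cre-negative DMSO skin in 4 of 15, Ccl2 in that contrast with imiquimod in 3 of 14 and with DMSO in 2 of 16, and Ccl20 with DMSO in 2 of 16. The other 6 passed in 1 each. Called values also moved by over 1.5 times with a replicate block for imiquimod in knockout skin (Ccl4 6.25, Ccl7 4.53), in Cre-negative skin (Ccl4 5.86) and for Ccl20 in knockout against Cre-negative imiquimod skin (-6.27), with a sex term for the Ccl2 difference (4.42) and Ccl22 with DMSO (-4.14), and without the libraries highest in 18S reads for Ccl8 in knockout against Cre-negative imiquimod skin (3.41) and its difference (4.29). Voom moved Ccl3 (5.91), Ccl4 (6.59) and Ccl22 (-2.42) as much in knockout against Cre-negative DMSO skin. With imiquimod in Cre-negative skin Ccl4 moved with voom (6.29), Ccl4 (4.15) and Ccl27a (-4.89) with library size alone, and Ccl3 (5.56) and Ccl4 (7.41) with a sex term. Library size alone also moved Ccl3 (4.77), Ccl4 (6.39) and Ccl27a (-3.48) in wild-type skin and the differences of Ccl2 (4.14), Ccl8 (3.66) and Ccl27a (4.22). The count of members past the threshold went to 7 with no filter for knockout against Cre-negative DMSO skin (4 as reported) and to 2 with a sex term for imiquimod in knockout skin (4 as reported). Leaving out 1 library gave 2 to 3 members for knockout against Cre-negative imiquimod skin and 1 to 3 for the difference of responses. In groups of 2 this leaves a lone library, assumed to vary like the other groups. The shares of all genes under these alternatives are not given here, so nothing particular to the members is read from these counts. The causes of these changes were not tested.

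Values of members that were not called changed sign as follows. Library size alone put the median of all genes at -0.63 for imiquimod in Cre-negative skin, -0.76 in wild-type skin and 0.84 for the difference. These medians were -0.06, -0.09 and 0.11 with TMM scaling. With library size alone, Ccl2 and Ccl20 went to -0.07 and -0.53 with imiquimod in Cre-negative skin. Ccl8 and Ccl17 went to -0.26 and -0.18 in wild-type skin, and the Ccl3 difference to 0.73. Without the libraries highest in 18S reads, Ccl2 and Ccl7 went to -0.43 and -0.50 in Cre-negative skin, Ccl20 to 0.00 in wild-type skin, and the Ccl3 and Ccl17 differences to 0.25 and 0.10. A sex term put Ccl20 and Ccl27a at 0.31 and 0.06 for imiquimod in knockout skin and the Ccl3 difference at 1.07. Voom put the Ccl3 and Ccl4 differences at 0.39 and -0.53, and a stricter filter that of Ccl3 at 0.03.

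Leaving out 1 library gave ranges across 0 for Ccl7 (-1.20 to 0.10) and Ccl8 (-0.93 to 0.04) in knockout against Cre-negative DMSO skin. With imiquimod in Cre-negative skin the ranges were -0.49 to 1.89 for Ccl2, -0.57 to 2.14 for Ccl7 and -0.48 to 1.88 for Ccl20, and in wild-type skin -0.98 to 5.15 for Ccl17 and -2.19 to 1.23 for Ccl20. For the difference of responses they were -1.03 to 0.50 for Ccl3, -1.84 to 1.37 for Ccl4 and -3.58 to 0.60 for Ccl17. Deviations of same-numbered samples of different groups had r of -0.32 to 0.493 over 31 pairs, 11 of them over 0.1. In groups of 2 the deviations mirror each other, and differently numbered pairs are not given beside these. Whether the numbers pair samples is thus not settled. With a replicate block, the counts of members past the threshold were 6, 5, 3, 4, 3 and 2 in the order knockout against Cre-negative with DMSO and with imiquimod, imiquimod against DMSO in Cre-negative skin, in knockout skin and in wild-type skin, and the difference, where the Ccl8 call ended (2.77, adjusted p = 0.05). The shares of all genes with that block are not given beside these counts either. Depth limits Ccl17 and Ccl22, whose groups held 0 to 80 counts.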
